A study of Mus musculus with 4 samples.

Results

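Retinoic acid, the active form of vitamin A, is made, bound and degraded by a small set of proteins, and 8 of their genes were followed here through 4 cultures of mouse cells in which caudal epiblast-like cells or neuromesodermal progenitors (NMPs, cells able to give spinal cord and paraxial mesoderm) were made. The genes were Aldh1a2, Rdh10, Dhrs3, Cyp26a1, Crabp1, Crabp2, Rarb and Rarg. They were chosen by name, with earlier results of these data known. All 8 were found among the 27998 genes of the deposited count matrix, 20359 of which had at least 1 count in the cells used. Within each library the level of each gene, the share of cells in which it was detected and the pairs of genes found in the same cell were measured.

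Rdh10 oxidises retinol to retinaldehyde, and Dhrs3 reduces retinaldehyde back to retinol. Aldh1a2 (also called Raldh2) then oxidises retinaldehyde irreversibly to retinoic acid, and is the main retinoic acid-making enzyme of the early embryo, where it is on in paraxial mesoderm and somites. Cyp26a1 hydroxylates retinoic acid for disposal and is on in the tail bud, so that the posterior progenitor zone is kept low in retinoic acid while the somites in front of it make it. Crabp1 and Crabp2 hold retinoic acid in the cytoplasm, and Rarb and Rarg are nuclear receptors that bind it together with an RXR partner. Rarb and Cyp26a1 are themselves textbook targets of these receptors.

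ES-NMP cells came from E14Tg2A embryonic stem cells kept for 2 days in N2B27 medium alone and for a further 24 h with 3 µM CHIR99021, a GSK3 inhibitor that activates Wnt signalling. Epi-CE cells came from epiblast stem cells (EpiSCs, maintained with FGF2 at 12 ng/ml and activin A at 25 ng/ml for at least 4 passages) that were moved to FGF2 at 20 ng/ml without activin A on day 2 and received 3 µM CHIR99021 from day 3. Epi-CE-T cells came by the same protocol from a line with a GFP reporter of the gene T (Brachyury), and GFP-positive cells were sorted after 72 h. Epi-NMP cells were Epi-CE cells replated for 2 days in FGF2 at 20 ng/ml with 3 µM CHIR99021. All 4 groups carry the strain label E14Tg2a, all received CHIR99021, and the labels name no added retinoic acid. N2B27 contains the supplement B27, which is sold with and without retinyl acetate, a vitamin A source, and the labels do not say which was used. Each group was 1 library, so no difference below has a replicate check, no p-value is given, and every interval is an exact 95% interval that covers counting error only.

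The cells used were those marked TRUE in the deposited cell table, 3116 of ES-NMP, 2386 of Epi-CE, 2109 of Epi-CE-T and 1111 of Epi-NMP, with median depths of 19189 to 22613.5 UMIs (unique molecular identifiers, each standing for 1 captured transcript) and library totals of 22261452 to 71563029 UMIs. The mark kept 94.8% to 96.8% of barcodes in 3 libraries and 42.3% in Epi-NMP. Among the 8722 TRUE cells 42 barcode sequences occurred in more than 1 library. In cells thinned to 8000 UMIs, T was detected in 32.9% of ES-NMP, 78.2% of Epi-CE, 74.7% of Epi-CE-T and 51.5% of Epi-NMP cells, so the library sorted for the T reporter did not have the higher share. That library was also lower than Epi-CE in other caudal epiblast genes, with Nkx1-2 at 12.6 against 181.6 CPM (counts per 1000000 UMIs), Cdx2 at 4.67 against 122.0 CPM and Fgf8 at 4.69 against 95.8 CPM. Line, sort and library cannot be told apart in Epi-CE-T, and the part of these marker differences in its results below was not tested. ES-NMP held a cluster of 538 naive pluripotent-like cells (17.3% of the library). Over the whole ES-NMP library the 10 naive markers summed to 762.8 CPM, against 20.6 to 61.0 CPM in the other libraries. Zfp42 had no count in Epi-CE-T or Epi-NMP.

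The promoters of Cyp26a1 and Rarb are shown because they carry the classical receptor motif. RefSeq windows of 250 bases upstream of a gene's start (build GRCm38.p6) were held for 6 of the 8 genes, all but Rdh10 and Crabp2. A direct repeat with 5 spacer bases (DR5, searched as the letters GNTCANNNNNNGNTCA on both strands) was matched in Cyp26a1 and in Rarb and in no other of the 6. Of all 27025 genes with a window, 244 (0.903%) held a match. In Cyp26a1 the match lay 32 to 17 bases upstream of the start, on the strand opposite to the gene, at chr19:37697776-37697791. It stands in capitals in the plus strand of chr19:37697558-37697797, from which the exon bases are left out.
Cyp26a1: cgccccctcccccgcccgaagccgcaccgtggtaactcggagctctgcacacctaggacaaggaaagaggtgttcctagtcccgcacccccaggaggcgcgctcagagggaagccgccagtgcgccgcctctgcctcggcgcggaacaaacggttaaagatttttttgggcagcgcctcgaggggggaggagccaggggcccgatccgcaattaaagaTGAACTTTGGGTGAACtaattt
In Rarb, a gene on the minus strand of chromosome 14, the match lay 52 to 37 bases upstream of the RefSeq start, on the gene's own strand, at chr14:16575513-16575528. Read on the strand of the motif, both matches are given in full, all of it motif.
Cyp26a1: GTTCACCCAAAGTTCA
Rarb: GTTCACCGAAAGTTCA
The matches were identical at 15 of 16 bases, and the single difference was C8G, counted from the 5′ end with the Cyp26a1 base first. Repeats with a spacer of 2 bases (GNTCANNNGNTCA) or 1 base (GNTCANNGNTCA), which share their half-sites with DR5, matched none of the 6 windows and 1.01% and 1.16% of all genes. Neither a match nor its absence says whether a receptor binds there, and binding was not measured.

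Aldh1a2 (chromosome 9, 71215789 to 71296243, plus strand, GRCm38, with the gene Gm48124 overlapping on the other strand) was highest in Epi-NMP and nearly absent from Epi-CE-T. Its level was 6.44 CPM (interval 5.87 to 7.06) in ES-NMP, 6.63 CPM (5.99 to 7.32) in Epi-CE, 0.445 CPM (0.272 to 0.687) in Epi-CE-T and 21.9 CPM (20.0 to 23.9) in Epi-NMP. The 2 first libraries thus lay within counting error of each other. Epi-NMP was 3.40-fold (2.98 to 3.87) above ES-NMP and 3.30-fold (2.88 to 3.78) above Epi-CE, and Epi-CE-T was 14.9-fold (9.53 to 24.7) below Epi-CE, on 20 UMIs. In cells thinned to 8000 UMIs it was found in 2.66%, 2.81%, 0.142% and 6.93% of cells in the same order and in unthinned counts in 5.17%, 4.74%, 0.522% and 9.81%. Positive cells held several transcripts each, 2.86 to 4.47 UMIs on average in unthinned counts of the 3 libraries with the gene, so the low library level came from a minority of cells.

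**Figure D1:**
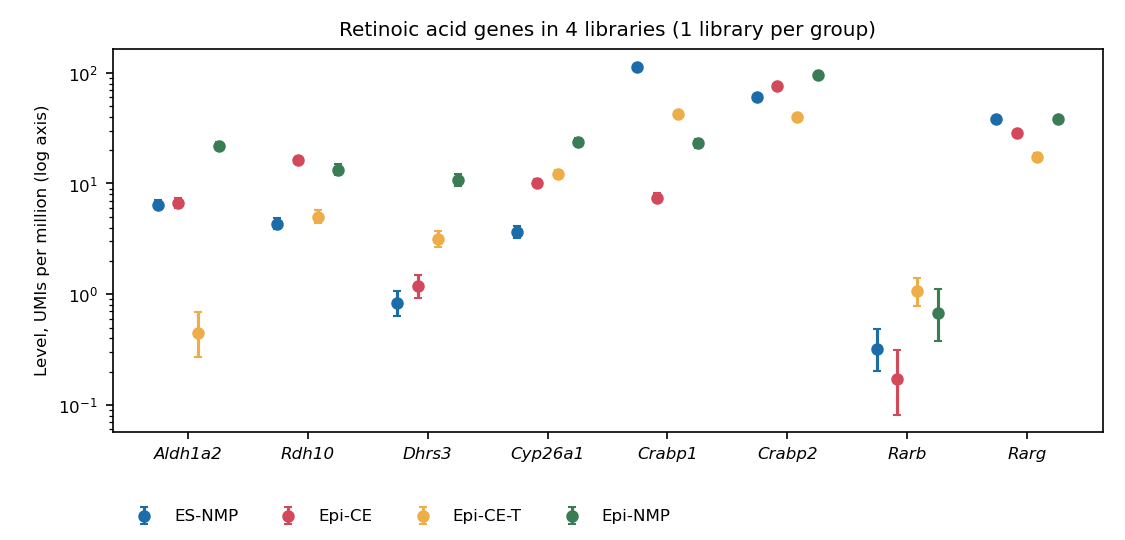
Level of the 8 genes in each library in CPM on a log axis, with 1 point per library (sum of UMIs over TRUE cells) and bars for the exact 95% Poisson interval. Aldh1a2 sits between 6.44 and 21.9 CPM in 3 libraries and at 0.445 CPM in Epi-CE-T, and Crabp1 spans 7.43 to 112.6 CPM.

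Most Aldh1a2 UMIs lay in 1 cluster of each of these 3 libraries when cells were clustered without the 8 genes and without other retinoic acid pathway genes. In ES-NMP an unnamed cluster of 131 cells (4.20% of the library), led by Spink1, Tbx6, Lhx1 and Sox17 and holding 7 of 10 paraxial or presomitic mesoderm markers, had 122.1 CPM of Aldh1a2 and 77.1% of its thinned UMIs, in 46 of the 83 positive cells. Spink1 and Sox17 are on the endoderm list. The next cluster was at 5.75 CPM, and the 220 cells of the neural-like cluster had no Aldh1a2 UMI, which allows a share of up to 1.66%. In Epi-CE the paraxial or presomitic mesoderm-like cluster of 212 cells, with 7 of the 10 markers, had 67.8 CPM and 89.1% of the UMIs. In Epi-NMP an unnamed cluster of 247 cells led by Mesp1, Bgn, Meox1 and Mesp2, with 5 of 8 somitic markers, had 69.8 CPM and 79.8% of the UMIs, in 60 of the 77 positive cells, while the 125 caudal epiblast or NMP-like cells had none. The 62 paraxial or presomitic mesoderm-like cells of Epi-NMP had 1 positive cell and 2.02 CPM. Aldh1a2 was therefore high in the presomitic-like cluster of Epi-CE but low in that of Epi-NMP, where a cluster with somitic markers held it. The Mesp1-led cluster also held 4 of the 10 paraxial or presomitic mesoderm markers, against 5 of 10 in the presomitic-like cluster of Epi-NMP. The Epi-NMP cluster with the lowest depth (79 cells, median 9740 UMIs) had 45.9 CPM and 16.8% of the UMIs, in 11 cells. That cluster stayed unnamed, and the part of its low depth in this level was not tested.

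The genes found with Aldh1a2 in single cells separated the same cells. In Epi-NMP, Meox1, a somite transcription factor, was in 42.9% of cells with Aldh1a2 and in 5.32% of those without. The joint cells numbered 33 where the product of the separate shares gives 6.10, a co-detection ratio of 5.41 (3.72 to 7.60). Tcf15, a second factor of paraxial mesoderm, had a ratio of 4.01 (2.95 to 5.34). Cdx2, a factor of the tail bud, had 0.233 (0.120 to 0.407), Sox2 0.368 (0.190 to 0.644) and T 0.530 (0.328 to 0.810). In ES-NMP and Epi-CE, Hes7, a clock gene of the presomitic mesoderm, was above 1 at 2.64 (1.78 to 3.77) and 3.68 (2.21 to 5.74). Tbx6, a presomitic mesoderm factor, was further above 1 where the product gave fewer than 5 cells: 36 joint cells against 2.98 in ES-NMP (12.1, 8.45 to 16.7), 34 against 3.26 in Epi-CE (10.4, 7.23 to 14.6) and 19 against 4.09 in Epi-NMP (4.65, 2.80 to 7.26). Meox1 in ES-NMP was in 10 cells, 5 of them with Aldh1a2 (product 0.266). Tcf15, another somitic marker, was near 1 in ES-NMP (1.29, 0.665 to 2.25) and Epi-CE (0.985, 0.396 to 2.03). Tbx6 was thus found with Aldh1a2 more often than the product gives in these 3 libraries. It was in only a part of the Aldh1a2-positive cells, 36 of 83, 34 of 67 and 19 of 77. The differences between libraries in the partners of Aldh1a2 were not tested. Meox1 was at 26.95 CPM in Epi-NMP against 0.511 to 0.824 CPM in the other libraries. The whole somitic list did not follow it: 6 to 8 of its 8 genes were above 3 counts in each library, and its sum, in the order used above, was 301.0, 654.2, 53.6 and 106.7 CPM, most of it Fst in ES-NMP, Epi-CE and Epi-CE-T (280.7, 636.3 and 44.0 CPM).

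Across the 1111 Epi-NMP cells the gene whose counts most resembled those of Aldh1a2 was Tcf15 (Pearson r 0.54 of log counts, over cells of 1 library thinned to one depth), followed at a distance by Nrarp (0.26), Lef1 (0.26), Igfbp4 (0.26), Hoxb3os (0.26) and Dll3 (0.26). The lowest were Cdx2 (-0.26) and Hoxaas3 (-0.26). The Hoxb3os and Hoxaas3 transcripts are antisense, and for the use of strand in counting no source was at hand.

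Rdh10 (chromosome 1, 16105774 to 16133734) was spread far more widely than Aldh1a2. It stood at 4.33 CPM (3.86 to 4.84) in ES-NMP, 16.2 CPM (15.2 to 17.3) in Epi-CE, 5.02 CPM (4.39 to 5.72) in Epi-CE-T and 13.3 CPM (11.9 to 14.9) in Epi-NMP. Epi-CE and Epi-NMP were the high libraries. Epi-CE exceeded ES-NMP 3.75-fold (3.30 to 4.28) and Epi-NMP exceeded it 3.08-fold (2.62 to 3.62), and Epi-CE-T was 3.23-fold (2.79 to 3.76) below Epi-CE. The share of thinned cells was 3.11%, 10.2%, 3.84% and 8.55%, and unthinned 8.92%, 25.4%, 8.53% and 19.7%. By cluster Rdh10 was highest where contractile genes led: 24.4 CPM in an unnamed ES-NMP cluster of 87 cells led by Acta2, Anxa1 and Tagln, 26.1 CPM in the smooth muscle or contractile-like cells of Epi-CE and 19.9 CPM in those of Epi-CE-T. In Epi-CE an unnamed cluster came close (23.4 CPM), and in Epi-NMP the highest, at 19.8 CPM, was an unnamed cluster led by Ripk4, Igfbp5 and Krt8. In ES-NMP the naive pluripotent-like cluster had the lowest share, 0.558% of 538 cells. No gene reached r of 0.2 with Rdh10.

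Dhrs3 (chromosome 4, 144892827 to 144928209), which runs the reverse reaction of Rdh10, was close to 1 CPM in ES-NMP and Epi-CE and highest in Epi-NMP. Its level was 0.838 CPM (0.640 to 1.08) in ES-NMP on 60 UMIs, 1.18 CPM (0.915 to 1.49) in Epi-CE on 69 UMIs, 3.18 CPM (2.68 to 3.74) in Epi-CE-T and 10.8 CPM (9.46 to 12.2) in Epi-NMP. ES-NMP and Epi-CE did not differ beyond counting error. Epi-NMP exceeded ES-NMP 12.9-fold (9.65 to 17.4) and Epi-CE 9.17-fold (6.99 to 12.2). The thinned share went from 0.674% and 1.17% in ES-NMP and Epi-CE to 2.28% in Epi-CE-T and 7.74% in Epi-NMP. Within Epi-NMP it was in 15.3% of cells with both T and Sox2, a pair used to mark NMPs, in 7.87% with T alone, in 7.47% with Sox2 alone and in 2.01% with neither. Both T (75.7%) and Sox2 (54.5%) were also frequent among the 189 cells of the unnamed Ripk4-led cluster. It held 5 of 10 endoderm markers and 4 of 8 node or notochord markers. That cluster had Dhrs3 at 19.8 CPM (13.4 to 28.3) and 28.8% of its thinned UMIs, against 22.1% in the caudal epiblast or NMP-like cluster. The caudal epiblast or NMP-like cluster stood at 23.0 CPM and the Mesp1-led cluster at 1.52 CPM (1.21% of its cells), while Aldh1a2 was high in the second and without a UMI in the first. Over other clusters this opposition did not hold: the low-depth cluster was high in both genes (Dhrs3 20.6 CPM), and the paraxial or presomitic mesoderm-like cluster low in both (2.02 CPM each). Foxa2, a node and endoderm factor (ratio 2.49, 1.56 to 3.77), and Fgf8 (1.99, 1.43 to 2.69) were found with it more often than the product of the shares gives.

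Cyp26a1 (chromosome 19, 37697798 to 37701536) was lowest in ES-NMP and highest in Epi-NMP. Its level, from the lowest library through Epi-CE and Epi-CE-T to the highest, was 3.66 CPM (3.23 to 4.13), 10.2 CPM (9.38 to 11.0), 12.3 CPM (11.3 to 13.4) and 23.6 CPM (21.7 to 25.7). All 4 intervals were apart, although Epi-CE-T exceeded Epi-CE by only 1.21-fold (1.07 to 1.36). Epi-NMP exceeded ES-NMP 6.45-fold (5.55 to 7.51) and Epi-CE 2.32-fold (2.06 to 2.61). The thinned shares were 1.80%, 4.19%, 6.97% and 12.0%, in the same order, and the unthinned ones 3.18%, 7.67%, 12.9% and 21.1%. Unlike Aldh1a2, Cyp26a1 was thus kept in the sorted library. The clusters that held it differed between libraries.

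In ES-NMP Cyp26a1 was highest in the Spink1 and Tbx6-led cluster (39.1 CPM) and next in the caudal epiblast or NMP-like cluster (15.3 CPM), and those held 39.4% and 49.0% of its thinned UMIs. No UMI was seen in 469 cells of a cluster led by Hes3 and Thy1, which allows a share of up to 0.783%. In Epi-CE the endoderm-like cluster (62.0 CPM, 21.9% of 137 cells) and the paraxial or presomitic mesoderm-like cluster (40.7 CPM, 15.6% of 212 cells) together stood far above the rest, none of which passed 5.99 CPM. In Epi-CE-T the endoderm-like cluster (20.3 CPM) and a cluster led by cell division genes (23.7 CPM) were highest. In Epi-NMP the caudal epiblast or NMP-like cluster was highest at 74.0 CPM with 36.0% of its cells positive, and the Mesp1-led cluster lowest at 3.54 CPM with 2.43%. The unnamed Ripk4-led cluster, which held 5 of 10 endoderm markers (Sox17 and Foxa2 among them), came next at 40.3 CPM with 20.1% positive cells, and held 30.2% of the Cyp26a1 UMIs against 36.6% in the progenitor-like cluster. Cyp26a1 thus lay in clusters with both endoderm and node or notochord markers in Epi-CE and Epi-NMP. Node or notochord markers numbered 5 of 8 in the endoderm-like cluster of Epi-CE and 4 of 8 in the Ripk4-led cluster. T was in 86.9% and 75.7% of their cells. Cyp26a1 also lay in mesoderm-like cells of Epi-CE and progenitor-like cells of Epi-NMP.

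**Figure D2:**
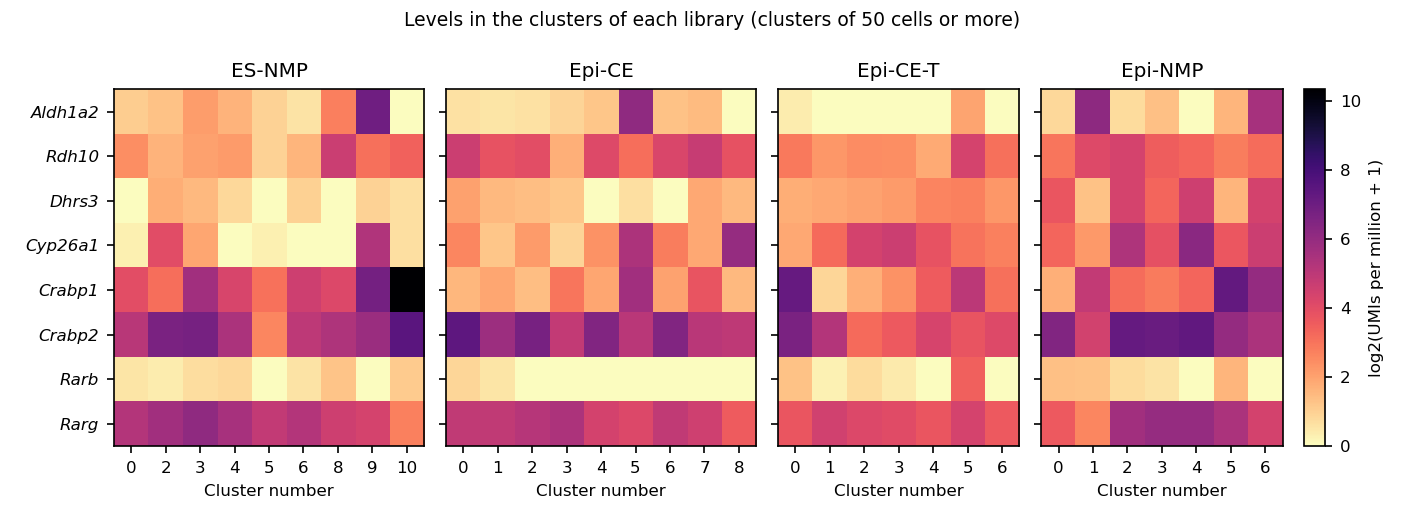
Level of the 8 genes, as log2 of CPM plus 1, in each cluster of at least 50 cells, by library. Aldh1a2 stands out in ES-NMP cluster 9 (122.1 CPM, the Spink1 and Tbx6-led cells), Epi-CE cluster 5 (67.8 CPM, paraxial or presomitic mesoderm-like) and Epi-NMP cluster 1 (69.8 CPM, Mesp1-led), and Cyp26a1 is highest in Epi-NMP cluster 4 (74.0 CPM, caudal epiblast or NMP-like).

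Some partners of Cyp26a1 differed between libraries. In ES-NMP, 75.0% of Cyp26a1-positive cells had Fgf8, a tail bud growth factor, against 23.0% of negative cells (ratio 3.14, 2.26 to 4.24). Fgf17 (3.91, 2.48 to 5.87), Hes7 (3.78, 2.53 to 5.43) and T (2.17, 1.55 to 2.96) were also above 1, and the naive pluripotency gene Zfp42 was below (0.185, 0.0382 to 0.541). In Epi-NMP the ratios were 2.23 (1.75 to 2.81) with Fgf8, 1.33 (1.10 to 1.59) with Cdx2 and 0.380 (0.103 to 0.972) with Meox1. In Epi-CE, by contrast, Nkx1-2, a caudal epiblast factor, was below 1 (0.531, 0.365 to 0.746), as were Cdx2 (0.569, 0.361 to 0.854) and the pluripotency gene Pou5f1 (0.644, 0.487 to 0.837). Above 1 in Epi-CE, on products under 5 cells, were Sox17 (6 cells against 1.05, ratio 5.73, 2.10 to 12.5), Shh (10 against 2.68, ratio 3.73, 1.79 to 6.86) and Tbx6 (14 against 4.86, ratio 2.88, 1.57 to 4.83). Sox17 and Tbx6 were above 1 in ES-NMP too, also on products under 5 cells. There Sox17 had 4 cells against 0.306 (ratio 13.1, 3.57 to 33.5) and Tbx6 had 9 against 2.01 (ratio 4.47, 2.04 to 8.49). Across Epi-NMP cells the genes most like Cyp26a1 were Fgf8 (r 0.28), Rspo3 (0.28), Hoxaas3 (0.22) and Hoxc8 (0.20), and none reached -0.2.

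The enzyme that makes retinoic acid and the one that degrades it were seldom in the same cell in Epi-NMP. Of 1111 thinned cells, 77 had Aldh1a2 and 133 had Cyp26a1, the product of the shares gives 9.22 joint cells, and none was found (ratio 0, interval up to 0.400). A second random thinning gave 2 joint cells against 9.91 (ratio 0.202). Unthinned counts gave 7 against 23.0 (ratio 0.305, 0.123 to 0.628). Leaving out the low-depth cluster of 79 cells gave 0 against 7.87. In the counts the exclusion was therefore partial and not complete, since 7 cells carried both at full depth. Doublets were not removed, and the part of doublets or free RNA in these 7 cells was not tested. The interval excluded 1 in 5 of 7 alternatives. It held 1 over all barcodes with at least 4000 UMIs (4 against 8.96, ratio 0.447, 0.122 to 1.14) and with 2 UMIs or more required (0 against 1.33, interval up to 2.78). Within any single cluster of Epi-NMP the product was at most 1.46 joint cells, too few to say whether the pair also avoid each other there.

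Epi-CE and ES-NMP did not repeat this over the whole library. In Epi-CE 6 joint cells were found against 2.81 (ratio 2.14, 0.784 to 4.65), 2 against 2.70 with the second thinning, and 15 against 8.67 unthinned (1.73, 0.969 to 2.85). All 6 were in the paraxial or presomitic mesoderm-like cluster, where 53 cells had Aldh1a2, 33 had Cyp26a1 and the product gives 8.25 (ratio 0.727, 0.267 to 1.58). Their median depth, 22853.5 UMIs, was near that of cells with either gene alone, 23109 and 22715 UMIs. In ES-NMP the library gave 2 joint cells against 1.49 (unthinned 4 against 5.12), but the Spink1 and Tbx6-led cluster, where 46 of 131 cells had Aldh1a2 and 15 had Cyp26a1, gave 0 against 5.27 (ratio 0, interval up to 0.700). In Epi-CE-T, with 3 Aldh1a2-positive thinned cells, the pair could not be read (product 0.209 cells). So the pair shared a cluster in Epi-CE and in ES-NMP, and the joint count within the shared cluster was below the product beyond counting error in ES-NMP and not in Epi-CE. The counts within clusters come from 1 thinning, and the difference between libraries was not tested.

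**Figure D3:**
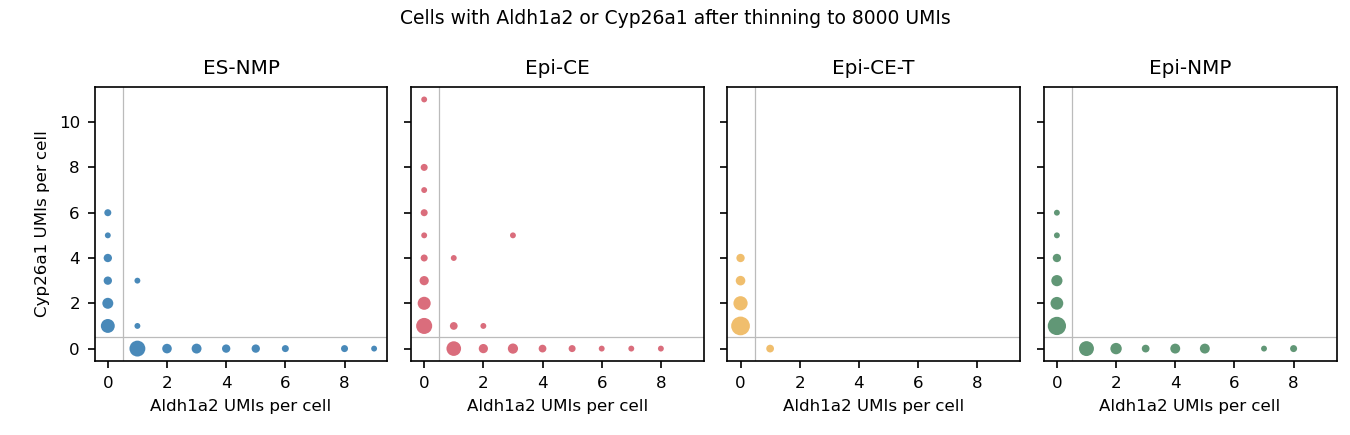
Cells of each library by their Aldh1a2 UMIs (x) and Cyp26a1 UMIs (y) after thinning to 8000 UMIs, with bubble area growing with the number of cells. In Epi-NMP no cell lies off the axes, and in Epi-CE 6 cells do.

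**Figure D4:**
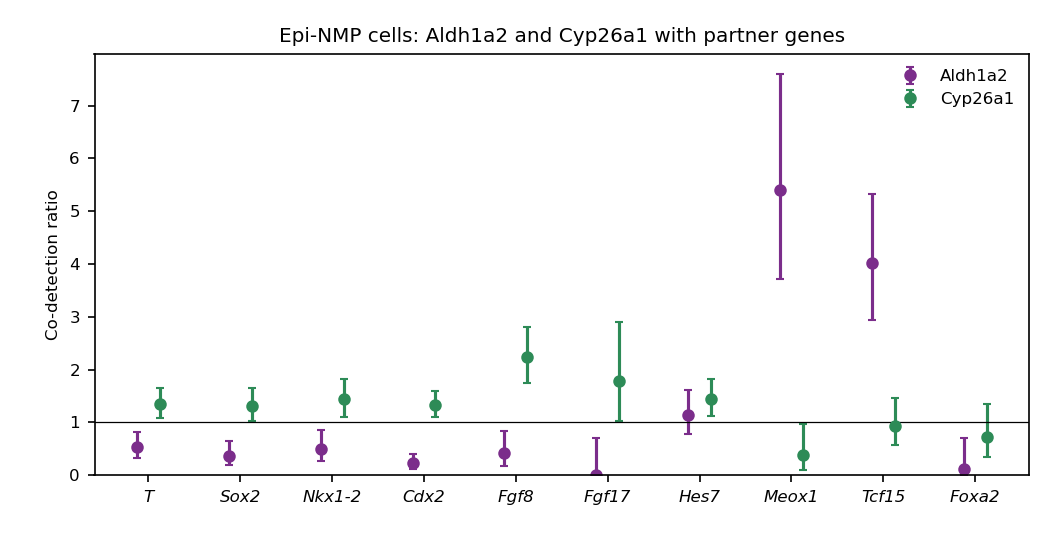
Co-detection ratio in Epi-NMP of Aldh1a2 and of Cyp26a1 with lineage genes (joint cells over the product of the shares), with 95% intervals and a line at 1. Meox1 (5.41) and Tcf15 (4.01) lie above 1 for Aldh1a2, Fgf8 (2.23) lies above 1 for Cyp26a1, and Cdx2 lies on opposite sides (0.233 and 1.33).

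Crabp1 (chromosome 9, 54764748 to 54773110) was highest in ES-NMP and lowest in Epi-CE. It was at 112.6 CPM (110.2 to 115.1) in ES-NMP, 7.43 CPM (6.75 to 8.16) in Epi-CE, 42.1 CPM (40.2 to 44.0) in Epi-CE-T and 23.1 CPM (21.1 to 25.2) in Epi-NMP. Epi-CE was 15.2-fold (13.8 to 16.7) below it. Level and share did not run together. In thinned cells 15.8% of ES-NMP, 4.44% of Epi-CE, 4.65% of Epi-CE-T and 10.2% of Epi-NMP cells had it, so that Epi-CE-T had a level 5.66-fold (5.10 to 6.29) that of Epi-CE with nearly the same share of cells. Unthinned, 174 Epi-CE-T cells (8.25%) held 10.9 UMIs each on average, against 1.79 in the 244 positive cells of Epi-CE. The difference lay in the amount per positive cell. In ES-NMP the mean was 8.20, the fullest thinned cell held 71 UMIs, and 86.1% of thinned Crabp1 UMIs were in the 5% of cells with the most.

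By cluster, Crabp1 was highest in neural-like cells in ES-NMP and in mesoderm-like cells in Epi-CE and Epi-NMP. Those clusters held 146 of the 491 positive thinned cells in ES-NMP, 55 of 106 in Epi-CE and 37 of 113 in Epi-NMP. In Epi-NMP that cluster had 36.2% of the thinned UMIs, the Mesp1-led cluster 27.1% and the low-depth cluster 19.3%. The ES-NMP neural-like cluster of 220 cells, with 6 of 12 neural markers (Sox1, Pax6, Pax3, Zic1, Hes5 and Irx3), had 1284 CPM, 66.4% positive cells and 80.6% of the library's Crabp1 UMIs, and the naive pluripotent-like cluster had 5.39% positive cells. The paraxial or presomitic mesoderm-like clusters of Epi-CE (50.1 CPM) and Epi-NMP (151.2 CPM, 59.7% of 62 cells) were highest in those libraries. In Epi-CE-T an unnamed cluster of 424 cells led by Wnt8a, Utf1, Nkx1-2 and Pou5f1 had 143.9 CPM and 88.1% of the UMIs from 14.2% of its cells. Tbx6, a presomitic mesoderm factor, was found with Crabp1 in ES-NMP (2.44, 1.76 to 3.28), Epi-CE (4.66, 2.98 to 6.93) and Epi-NMP (3.67, 2.30 to 5.55). Pax3 (3.79, 2.62 to 5.29) and the neural gene Sox1 (2.23, 1.67 to 2.92) were found with it in ES-NMP. Within ES-NMP, Crabp1 was thus found with markers of more than 1 lineage.

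Across the 3116 ES-NMP cells the genes most like Crabp1 were Fabp7 (r 0.50), which encodes a fatty acid carrier of neural progenitors, Ptn (0.46), Mest (0.30), its relative Crabp2 (0.29), Hmga2 (0.27) and Nkd1 (0.27). The least alike were Pou5f1 (-0.31), Apoe (-0.23), Chchd10 (-0.23) and Epcam (-0.22).

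Crabp2 (chromosome 3, 87948666 to 87953376), which passes retinoic acid to the receptors in the nucleus, varied less. It was at 60.2 CPM (58.4 to 62.0) in ES-NMP, 75.7 CPM (73.5 to 78.0) in Epi-CE, 39.7 CPM (37.9 to 41.6) in Epi-CE-T and 94.6 CPM (90.6 to 98.8) in Epi-NMP. The 4 intervals were apart. The highest and lowest libraries, Epi-NMP and Epi-CE-T (94.6 and 39.7 CPM), were not among the 4 comparisons made. No pair of libraries compared was 2-fold apart. The nearest to it was Epi-CE-T at 1.91-fold (1.81 to 2.02) below Epi-CE. That ratio passed 2-fold when each cell's CPM was averaged within its library (log2 ratio -1.19) or when only cells of middle depth were summed (-1.14). It just did so with edgeR's TMM factors (ratio 0.499). Thinned shares were 28.7%, 32.4%, 14.3% and 39.8%. Within libraries the spread was larger. The ES-NMP neural-like cluster stood at 179.0 CPM and the naive pluripotent-like cluster at 5.11 CPM (3.90% of its cells), and in Epi-NMP the caudal epiblast or NMP-like cluster stood at 155.0 CPM and the Mesp1-led cluster at 21.3 CPM. Zfp42 was found with Crabp2 less often than the product of the shares gives in ES-NMP (0.383, 0.311 to 0.466).

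The 2 carriers had different partners in Epi-NMP, although they did not avoid each other (43 cells against 45.0, ratio 0.956, 0.692 to 1.29). There Aldh1a2 was found with Crabp1 above the product of the shares (20 cells against 7.83, ratio 2.55, 1.56 to 3.94) and with Crabp2 below it (10 against 30.6, ratio 0.326, 0.157 to 0.60). Cyp26a1 was found with Crabp2 above it (76 against 52.9, ratio 1.44, 1.13 to 1.80) and with Crabp1 near it (0.887, 0.458 to 1.55). Cyp26a1 with Crabp2 went the same way in ES-NMP (1.68, 1.11 to 2.44) and the other way in Epi-CE (0.555, 0.329 to 0.877) and Epi-CE-T (0.523, 0.261 to 0.935), where the interval stayed below 1 in 2 of 6 and 3 of 6 processing alternatives. Aldh1a2 with Crabp1 was also above 1 in ES-NMP (2.91, 2.06 to 3.99) and, on a product of 2.98 cells, in Epi-CE (18 cells, ratio 6.05, 3.58 to 9.56).

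The carriers were found together in ES-NMP (225 cells against 141.0, ratio 1.60, 1.39 to 1.82) and in Epi-CE-T (45 against 14.0, ratio 3.21, 2.34 to 4.29). Both ratios above 1 kept their intervals above 1 in 6 of 6 alternatives. Across Epi-NMP cells Crabp2 was most like Hoxaas3 (r 0.25), Cdx2 (0.23), Hoxb5os (0.22) and Fgf8 (0.21), the first and the third antisense transcripts, and least like Tmsb4x (-0.31), Lmo2 (-0.23) and Serpinh1 (-0.22).

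Rarg (chromosome 15, 102234938 to 102257517, minus strand), the receptor gene known from caudal progenitors, differed little between ES-NMP and Epi-NMP and was lowest in Epi-CE-T. It was at 38.6 CPM (37.2 to 40.1) in ES-NMP, 28.4 CPM (27.02 to 29.8) in Epi-CE, 17.5 CPM (16.3 to 18.7) in Epi-CE-T and 38.4 CPM (35.9 to 41.1) in Epi-NMP. Epi-NMP and ES-NMP did not differ beyond counting error (ratio 0.995, 0.921 to 1.07), and no ratio passed 2-fold in the 4 comparisons made. In those, Epi-CE-T was set against Epi-CE alone and not against ES-NMP or Epi-NMP. Thinned shares were 24.8%, 19.1%, 12.3% and 22.8%. Within Epi-NMP, Rarg was highest in a cluster led by Epha5, Hes5 and Tubb3 (61.7 CPM) and in the caudal epiblast or NMP-like cluster (61.0 CPM), and lowest in the Mesp1-led cluster (5.06 CPM). In that library 3 cells had both Aldh1a2 and Rarg against 17.5 by the product (ratio 0.171, 0.0353 to 0.500), and Rarg was above 1 with Cdx2 (1.37, 1.2 to 1.56) and Fgf17 (1.99, 1.38 to 2.78). In ES-NMP it was lowest in the neural-like cluster, at 5.68 CPM and 4.09% of cells, where Crabp1 was highest. The Crabp1 and Rarg ratio there was 0.764 (0.616 to 0.935).

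Rarb (chromosome 14, 16430839 to 16819156, minus strand, with Top2b and Gm48162 overlapping on the other strand) was at the edge of detection. Its counts were 23 UMIs in ES-NMP, 10 in Epi-CE, 48 in Epi-CE-T and 15 in Epi-NMP, or 0.321 CPM (0.204 to 0.482), 0.170 CPM (0.0817 to 0.313), 1.07 CPM (0.787 to 1.41) and 0.674 CPM (0.377 to 1.11). Epi-CE-T was the high library and its interval overlapped that of Epi-NMP. The ratio of Epi-CE-T to Epi-CE was 6.26 (3.13 to 13.9), and the other comparisons had fewer than 50 UMIs and were not read. Within Epi-CE-T the 88 smooth muscle or contractile-like cells, led by Anxa1 and collagen genes, stood at 9.94 CPM and the next cluster at 1.47 CPM. At full depth the 41 Rarb-positive cells of Epi-CE-T held 1.17 UMIs each on average.

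Set against all genes, the members were past 2-fold more often than the background in some comparisons. A gene was counted as higher or lower at 2-fold or more with at least 50 UMIs over both libraries. From ES-NMP to Epi-CE, 2 of 7 members were higher (Rdh10 and Cyp26a1 at 2.78-fold, 2.40 to 3.23) where 11.3% of 13553 genes were higher, and 1 was lower (Crabp1) where 8.2% were lower. From ES-NMP to Epi-NMP, 4 of 7 were higher (Dhrs3, Cyp26a1, Aldh1a2 and Rdh10) against 7.48% of genes, and 1 was lower (Crabp1, 4.88-fold, 4.46 to 5.34) against 11.9%. From Epi-CE to Epi-NMP, 4 of 7 were higher (Dhrs3, Aldh1a2, Crabp1 at 3.11-fold, 2.73 to 3.54, and Cyp26a1) against 5.59%, and 0 were lower against 13.7%. From Epi-CE to Epi-CE-T, 3 of 8 were higher (Rarb, Crabp1 and Dhrs3 at 2.70-fold, 2.01 to 3.66) against 8.39%, and 2 were lower (Aldh1a2 and Rdh10) against 7.03%. The members' median log2 ratio was 0.33, 1.62, 1.22 and -0.21 in these comparisons, beside 0.03, 0.02, -0.01 and 0.04 over all genes. The comparisons share libraries, so they are not independent of each other, and with 7 or 8 genes a count describes these genes alone. The members were chosen with earlier results of these data known, and the part of that choice in these counts was not tested.

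**Figure D5:**
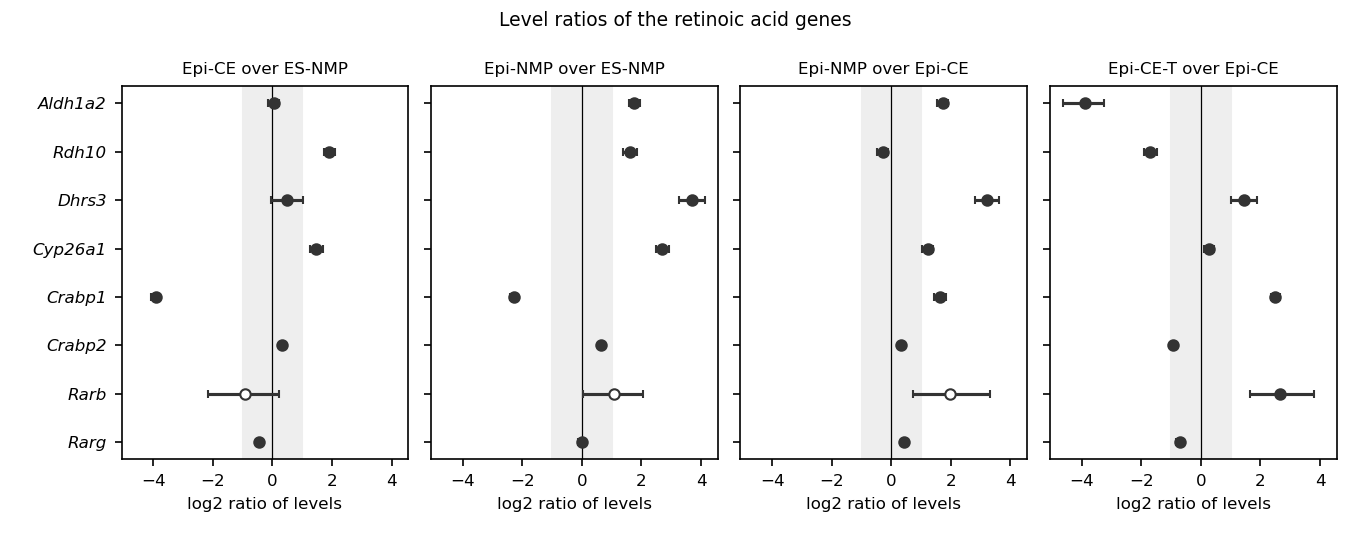
Log2 ratio of the level of each member in 4 comparisons between libraries, with exact 95% intervals for counting error, a grey band for differences under 2-fold and open circles for ratios on fewer than 50 UMIs. Dhrs3 is highest in Epi-NMP over both ES-NMP (3.68) and Epi-CE (3.20), and Aldh1a2 in Epi-CE-T over Epi-CE is at -3.90.

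The enzyme pair Aldh1a2 and Cyp26a1 was higher in Epi-NMP than in both ES-NMP (3.40-fold and 6.45-fold) and Epi-CE, while Rdh10 was higher than in ES-NMP alone (0.821 of Epi-CE, 0.719 to 0.936). Between Epi-CE-T and Epi-CE, Aldh1a2 was lower and Crabp1 higher in the sorted library. The 10 paraxial or presomitic mesoderm markers summed to 203.7 CPM in ES-NMP, 305.3 CPM in Epi-CE, 225.3 CPM in Epi-CE-T and 519.4 CPM in Epi-NMP, with 9 or 10 above 3 counts and Msgn1 without a count in Epi-CE-T and Epi-NMP. Tbx6 was at 8.08, 9.61, 0.911 and 7.996 CPM, and so was low in the library in which Aldh1a2 was low. The part of these marker differences in the Aldh1a2 result was not tested.

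Of 39 other genes of the pathway, 25 or 26 had enough counts in each comparison. In Epi-CE over ES-NMP 1 of 26 was higher (Rdh11, a retinal reductase, at 2.21-fold) and 2 lower, where 11.3% and 8.2% of all genes were. In Epi-NMP over ES-NMP 2 of 25 were higher and 2 lower (7.48% and 11.9% of all genes). In Epi-NMP over Epi-CE 3 of 25 were higher and 3 lower (5.59% and 13.7%). In Epi-CE-T over Epi-CE 4 of 26 were higher and 1 lower (8.39% and 7.03%). Stra6, the cell surface receptor that takes up retinol from its carrier protein, was at 10.4 CPM in ES-NMP, 3.58 in Epi-CE, 3.71 in Epi-CE-T and 47.9 in Epi-NMP. Its level in Epi-NMP was 4.61-fold (4.20 to 5.07) above ES-NMP and 13.4-fold (11.5 to 15.6) above Epi-CE. Rxrg, a receptor partner, ran the other way, at 13.9 CPM in ES-NMP, 5.74 CPM in Epi-CE, 7.25 CPM in Epi-CE-T and 1.08 CPM in Epi-NMP. Nrip1, a corepressor that binds the liganded receptors, was at 8.10, 8.11, 19.1 and 20.8 CPM. Rbp4, the retinol carrier protein, was 2.68-fold (2.30 to 3.13) higher in Epi-CE-T than in Epi-CE, and Dhrs4 was 2.26-fold lower there. Of the relatives of the 2 enzymes, Cyp26c1 had no count in any library, Cyp26b1 was at 0.0682 to 0.391 CPM, Aldh1a1 at 0.0341 to 0.222 CPM and Aldh1a3 at 0.267 to 0.426 CPM. Aldh1a7 was at 1.41 CPM in ES-NMP, 2.16 CPM in Epi-CE, 4.56 CPM in Epi-CE-T and 1.75 CPM in Epi-NMP. In the sorted library it was thus detected on 205 UMIs where Aldh1a2 had 20.

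Of 16 genes known to respond to retinoic acid, 14 or 15 had enough counts. In Epi-CE over ES-NMP 2 of 15 were higher and 5 lower, where 11.3% and 8.2% of all genes were. In Epi-NMP over ES-NMP 7 of 15 were higher and 2 lower (7.48% and 11.9% of all genes). In Epi-NMP over Epi-CE 8 of 15 were higher and 2 lower (5.59% and 13.7%). In Epi-CE-T over Epi-CE 7 of 14 were higher and 4 lower (8.39% and 7.03%). The list's median log2 ratio was -0.36, 0.94, 1.70 and 0.76, beside 0.03, 0.02, -0.01 and 0.04 over all genes. Hoxb4, a more anterior trunk Hox gene, was at 16.3 CPM in ES-NMP, 3.15 in Epi-CE, 2.31 in Epi-CE-T and 56.7 in Epi-NMP, 18.0-fold (15.4 to 21.1) higher in Epi-NMP than in Epi-CE. The orphan receptor gene Nr2f1 was at 0.992, 0.528, 5.22 and 5.48 CPM, high in both Epi-CE-T and Epi-NMP, and Nr2f2 was at 1.12, 0.494, 6.45 and 6.78 CPM. Cdx1 went against these, at 77.6, 42.1, 1.24 and 11.0 CPM, as did Hoxb1 at 52.1, 24.5, 1.60 and 13.7 CPM. These genes also answer to Wnt and FGF signals or mark cell types, so the list measures their levels and not the amount of retinoic acid, which was not measured. This list and that of the other pathway genes were also chosen with earlier results of these data known.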

How the data were processed

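Per the labels' protocols, 8700 cells per population were loaded on a 10x Chromium system, and the submitters' processing notes name Cell Ranger 1.3.1, Seurat 2.0 and the build mm10. The deposited matrix holds the authors' whole-number UMI counts. Of annotation, multi-mapping and strand the sources used here say nothing. Nor do they explain the TRUE mark: each TRUE barcode had at least 8011 UMIs and 2501 genes, as had 80 of 1857 FALSE ones. The members and gene lists were chosen with earlier results of these data known.

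Counts were summed over TRUE cells and divided by the library total, per 1e+06 (CPM). A floor of 3 counts corresponds to 0.0419 to 0.135 CPM. Intervals are exact (Poisson for levels and joint cells, conditional binomial for ratios, Clopper-Pearson for shares) and cover counting error only. Shares and co-detection used each cell thinned without replacement to 8000 UMIs, and pairs were read from a product of at least 5 joint cells. Exceptions, printed after their values were seen, were Aldh1a2 with Cyp26a1, Tbx6, Meox1 (ES-NMP) and Crabp1 (Epi-CE). Further exceptions of this kind were Cyp26a1 with Sox17 and Tbx6 (ES-NMP and Epi-CE) and with Shh (Epi-CE). Likeness was Pearson r of log counts over genes in at least 10% of cells, named from a size of 0.2, at most 6 highest and 4 lowest. Partner genes (22) and other pathway genes past 2-fold were named by rules set for them. The lineage genes shown are a choice from those 22. Each library was clustered alone (scanpy 1.11.5, 2000 variable genes without members and pathway genes, 30 components, 15 neighbours, Leiden resolution 0.6), and a cluster was named from marker lists, by a rule tightened after the clusters were seen. Doublets were not removed. Scrublet called 51 of 8722 cells (0.585%). Alternatives used edgeR 4.0.16 and DESeq2 1.42.0 for scaling. The statistics were tested on simulated data.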

Additional observations from a re-analysis of the deposited data

Results flagged for a closer look

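The FALSE barcodes of Epi-NMP, which the reported comparisons leave out and some alternatives include, held 7 of the 8 members above the limit that a count of 0 allows (0.391 CPM over 7666374 UMIs of 1513 barcodes). Their levels were 18.4 CPM for Aldh1a2, 9.39 CPM for Rdh10, 19.0 CPM for Dhrs3, 18.5 CPM for Cyp26a1, 53.2 CPM for Crabp1, 90.003 CPM for Crabp2 and 26.6 CPM for Rarg. Dhrs3 was 1.77-fold (1.43 to 2.18) and Crabp1 2.30-fold (2.02 to 2.63) the level of the TRUE cells, while Rarg (0.693, 0.592 to 0.808), Rdh10 (0.704, 0.536 to 0.913) and Cyp26a1 (0.784, 0.647 to 0.945) were below it. Rarb, with 2 UMIs, was under the limit. The median depth of these barcodes was 4720 UMIs against 19252 in TRUE cells, and what sets them apart was not tested.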

How the results depend on the processing

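Of the recomputed counts of members past 2-fold, 67 stayed within 1.5 times of the reported one. The exception was the count lower in Epi-CE-T than in Epi-CE, which became 4 at a fold of 1.5, with Crabp2 and Rarg added to Aldh1a2 and Rdh10. Of the recomputed level ratios 187 stayed within their interval and 21 moved beyond it. None that was 2-fold or more changed direction, and smaller ratios were not checked for direction. Leaving out the naive pluripotent-like cluster (chosen after seeing the data, as was leaving out the low-depth cluster of Epi-NMP) moved Rarb alone across 2-fold. The Aldh1a2 and Cyp26a1 ratio became 0 in ES-NMP with cells thinned to 4000 UMIs, with 2 UMIs or more required, and with all barcodes, 0.447 in Epi-NMP with all barcodes, and 0.742 in Epi-CE with a second random seed. With 2 UMIs required no value was possible in Epi-CE-T. Of the recomputed co-detection ratios 325 stayed within their interval and 68 moved beyond it. A further 3 crossed 1 where the reported interval had excluded it. With 2 UMIs required 15 stayed, 44 moved and 1 crossed. The Crabp2 and Rarg ratio in Epi-NMP crossed 1, to 0.958 at 4000 UMIs and 0.796 with 2 UMIs required, as did Dhrs3 and Crabp2 in ES-NMP (0.815 with the second seed). The causes were not tested. Of the recomputed shares 86 moved beyond their interval, under settings that change the depth or the minimum of UMIs. No paired analysis was possible because each group is 1 library without a replicate number, and no replicate could be left out. Depth limits Rarb in every library, Aldh1a2 in Epi-CE-T and joint counts below 5.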
